A study of Homo sapiens with 16 samples.

Results

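The 46 genes described here act in homologous recombination, polymerase theta end joining and Fanconi crosslink repair. They are defined by membership in these pathways, by a rule that uses no measured value, although the set was proposed with earlier results of these data known. All 46 were found by symbol among the 59081 genes of the count table. RNA was sequenced from U2OS, a single human osteosarcoma line, in 16 poly(A) libraries of 4 groups with 4 libraries each. Confluent cells were kept for 48 h in medium without serum, and for the last 24 h they received harmine hydrochloride at 10 µM, its vehicle water, INDY at 25 µM or its vehicle DMSO. Both compounds inhibit the kinase DYRK1A, which phosphorylates LIN52 in the assembly of the repressor complex DREAM. Harmine was compared with water and INDY with DMSO, so the comparisons share no control library. The doses and vehicles differed between the compounds, and a difference between their effects is therefore no comparison at a matched dose. All cells were of the same line and all were without serum, so no serum-fed culture is among the groups analysed here.

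Homologous recombination repairs a broken chromosome by copying the sister chromatid, and it acts mostly in S and G2 phase. The ends are first trimmed to single strands, a recombinase is loaded by the BRCA proteins and its paralogs, the invading strand is extended, and the joined molecules are dissolved or cut. The Fanconi proteins act on DNA whose strands are crosslinked. A core complex with a ubiquitin ligase marks the FANCD2 and FANCI pair, nucleases and helicases then open the crosslink, and recombination completes the repair. Polymerase theta joins broken ends at short stretches of matching bases.

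Promoters are shown for the members with the 3 largest rises with harmine and the 3 largest falls with INDY that had an entry in the promoter table. These are bases before the transcription start site in RefSeq on GRCh38.p14, written 5′ to 3′ on the strand of the gene, with exact matches to the motifs searched in capitals. The motifs were the E2F type (TTT, then 2 bases that are each C or G, then CG, then 1 base that is C or G), the cell cycle homology region TTTGAA, the CCAAT box CCAAT, the ETS core CCGGAAG and the CREB core TGACGT, each on both strands. EME1 (chr17:50372979-50373228, plus strand) has an ETS core on the opposite strand, 43 bases before its start. POLQ (chr3:121545989-121546238, minus strand) has an ETS core 109 bases before its start and the reverse complement of TTTGAA 230 bases before it. FANCD2 (chr3:10026187-10026436, plus strand) has an ETS core on the opposite strand and a pair of CREB cores. RAD51B (chr14:67823291-67823540, plus strand) has no match, and its RefSeq start lies 3762 bases downstream of the start of the canonical GENCODE transcript. BRIP1 (chr17:61863529-61863778, minus strand) has 3 CCAAT boxes on the opposite strand and the reverse complement of TTTGAA. FANCF (chr11:22625824-22626073, minus strand) has an E2F-type match 65 bases before its start between a pair of CCAAT boxes.
EME1: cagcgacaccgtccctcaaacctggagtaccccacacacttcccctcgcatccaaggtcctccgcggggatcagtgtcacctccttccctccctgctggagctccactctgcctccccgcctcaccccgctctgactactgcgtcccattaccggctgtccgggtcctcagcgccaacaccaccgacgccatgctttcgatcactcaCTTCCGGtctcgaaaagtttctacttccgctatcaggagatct
POLQ: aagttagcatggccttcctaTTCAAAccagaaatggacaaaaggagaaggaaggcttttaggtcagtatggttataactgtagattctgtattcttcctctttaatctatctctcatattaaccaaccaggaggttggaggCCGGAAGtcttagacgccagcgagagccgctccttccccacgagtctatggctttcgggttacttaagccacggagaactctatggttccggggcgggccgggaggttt
FANCD2: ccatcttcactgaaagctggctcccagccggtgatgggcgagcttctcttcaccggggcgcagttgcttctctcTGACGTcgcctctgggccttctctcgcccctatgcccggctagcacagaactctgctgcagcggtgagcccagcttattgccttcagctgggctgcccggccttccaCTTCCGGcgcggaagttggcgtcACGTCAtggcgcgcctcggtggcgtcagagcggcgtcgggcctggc
RAD51B: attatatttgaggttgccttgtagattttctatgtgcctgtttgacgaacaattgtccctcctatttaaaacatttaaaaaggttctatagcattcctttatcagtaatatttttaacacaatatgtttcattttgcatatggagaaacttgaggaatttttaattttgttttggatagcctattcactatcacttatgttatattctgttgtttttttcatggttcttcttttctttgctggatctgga
BRIP1: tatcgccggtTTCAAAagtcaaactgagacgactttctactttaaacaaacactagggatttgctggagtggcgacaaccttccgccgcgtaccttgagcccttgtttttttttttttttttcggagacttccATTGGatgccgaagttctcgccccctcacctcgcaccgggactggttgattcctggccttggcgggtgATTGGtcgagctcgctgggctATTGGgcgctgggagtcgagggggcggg
FANCF: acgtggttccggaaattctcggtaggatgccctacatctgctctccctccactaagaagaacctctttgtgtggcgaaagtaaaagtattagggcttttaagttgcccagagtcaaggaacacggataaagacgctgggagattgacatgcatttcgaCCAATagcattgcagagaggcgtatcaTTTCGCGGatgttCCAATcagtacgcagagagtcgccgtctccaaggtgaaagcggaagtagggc

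Of the 46 members, 41 had a promoter in the table. NBN, RAD54B, TONSL, RMI2 and FANCI had none there. In the window of 300 bases from 250 before to 50 after the start, the E2F-type motif was found in 8 of 41 members (19.5%) and in 7.67% of the 22199 promoters of protein-coding genes (6.19% of all 35116 promoters in the table). Those 8 were RAD50, XRCC2, RMI1, FANCA, FANCC, FANCF, FANCD2 and UBE2T, and in FANCD2 the match begins 2 bases before the start and runs past it, so it is not in capitals above. The ETS core was found in 13 members (31.7%, against 12.8% of protein-coding promoters and 10.3% of all), the CREB core in 6 (14.6%, against 8.94% and 7.98%), the CCAAT box in 18 (43.9%, against 34.7% and 34.6%) and TTTGAA in 7 (17.1%, against 12.4% and 15.2%). By direction, the E2F-type motif stood in 5 of the 34 members with a promoter that rose with harmine (14.7%), in 2 of 18 that rose with INDY (11.1%) and in 4 of 11 that fell with INDY (36.4%), namely RAD50, FANCC, FANCF and UBE2T. These shares were not tested, and a match describes letters in a window only.

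Library totals were 44301910 to 65889667 estimated counts, and all members passed the filter on low counts. SWSAP1 had as few as 62 counts in a library, and every other member had at least 242. Levels are given as CPM, which are counts scaled to library size and TMM-normalized. Vimentin (VIM), SPARC, COL1A1 and the bone lineage factor RUNX2 were expressed in every group, whereas the bone marker BGLAP lay near 0.112 CPM with water and COL1A2 did not pass the filter. Over all 10 osteosarcoma and mesenchymal markers the sum was 2896 to 3107 CPM with water, 3474 to 3569 with harmine, 3118 to 3333 with DMSO and 3262 to 3667 with INDY. Of the 9 tested, 3 rose and 5 fell with harmine (median log2 fold change -0.30), and 2 rose and 6 fell with INDY (median -0.39), with ALPL lowest at -2.29. Gene positions are spans over all transcripts in GENCODE 44 on GRCh38. Over 7 epithelial genes the sum was 62.0 to 81.0 CPM with water, 31.3 to 34.4 with harmine, 52.3 to 63.5 with DMSO and 37.2 to 49.0 with INDY, and CLDN4 made up most of it in every group. Over 7 blood genes it was 0.626 to 0.684, 0.489 to 1.099, 0.359 to 0.538 and 1.39 to 2.57 CPM in the same order, with HBB at 0 in every harmine library and CD3E in every INDY library. Of the 3 blood genes tested, 1 was called higher and 1 lower with INDY. Their log2 fold changes with INDY ran from -2.93 to 4.41. Their part in the members' changes was not tested. INDY replicates 1 and 3 stood apart from replicates 2 and 4 on the first principal component, and water replicates 1 and 4 from 2 and 3 on the third. Whether the 4 libraries of a group were grown as separate cultures is not given in the sources used here, and the p-values reflect only how far these libraries differ, which may be technical.

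With harmine, 38 of the 46 members were higher than with water, NBN was lower and 7 were not called (edgeR quasi-likelihood test, adjusted p under 0.01 over all 20446 genes tested). Of all genes tested, 24.9% were called higher and 22.8% lower, so the share of members that rose stands well above that of the table. With INDY, 20 members were higher than with DMSO, 12 were lower and 14 were not called, against 33.2% of all genes called higher and 33.4% lower. The members' share with INDY was therefore nearer to the table than with harmine in both directions. The median log2 fold change of the members was 0.40 with harmine and 0.12 with INDY, and over all genes tested it was 0.02 and -0.01. With a change of at least 1.5-fold also asked for, 14 members rose and 1 fell with harmine (8.41% and 7.9% of all genes), and 7 rose and 1 fell with INDY (14.3% and 19.4%). The groups did not overlap for 39 members with harmine (55.1% of all genes tested) and for 35 with INDY (67.5%). These are levels in bulk RNA, where a change in the number of cells in S or G2 phase and a change in RNA per cell cannot be told apart.

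**Figure D1:**
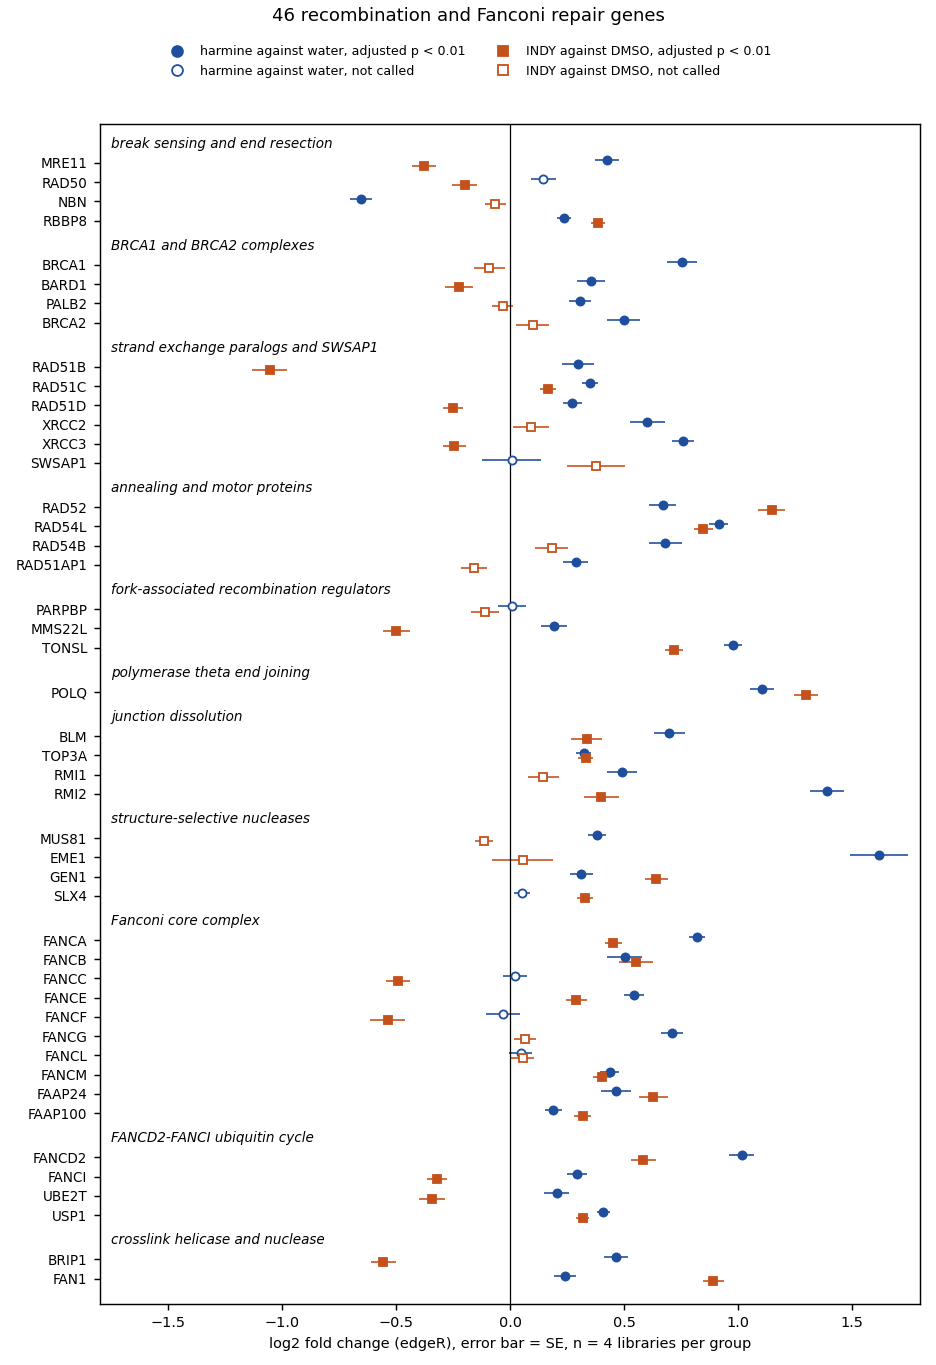
Log2 fold change of each of the 46 members (rows, grouped by step) with harmine against water (blue circles) and INDY against DMSO (orange squares), with standard errors as bars, 4 libraries per group, and filled symbols for an adjusted p under 0.01 in edgeR. Harmine symbols lie right of 0 for most members with NBN (-0.66) to the left, and INDY symbols run from -1.05 for RAD51B to 1.30 for POLQ.

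Taken by both compounds, 19 members rose with each (12.1% of all genes tested did so), and 9 rose with harmine and fell with INDY (6.26% of all genes). Those 9 were MRE11, BARD1, RAD51B, RAD51D, XRCC3, MMS22L, FANCI, UBE2T and BRIP1. The change with harmine lay above that with INDY for 29 members and below it for 6, namely NBN, RBBP8, RAD52, GEN1, SLX4 and FAN1 (28.1% and 26.4% of all genes tested). Some of the 29 stand there through their fall with INDY. Among the 6, RBBP8 did not pass without DMSO replicate 1 (adjusted p = 0.0139), 2 (adjusted p = 0.0147) or 4 (adjusted p = 0.0117), with a replicate block (adjusted p = 0.0132) or without the filter (adjusted p = 0.0159). BRCA1, PALB2, BRCA2, XRCC2, RAD54B, RAD51AP1, RMI1, MUS81, EME1 and FANCG (higher) and NBN (lower) were called with harmine alone, and SLX4 (higher), RAD50, FANCC and FANCF (lower) with INDY alone. For each of these genes the difference between the effects passed as well. It did not pass for RMI1 without harmine replicate 1 (adjusted p = 0.011), harmine replicate 4 (adjusted p = 0.0103) or DMSO replicate 3 (adjusted p = 0.0129). Nor did it for BRCA2 without both water replicates 1 and 4 (adjusted p = 0.0197). For RAD51C, which rose with both compounds, the difference did not pass without harmine replicate 1 (adjusted p = 0.0107), harmine replicate 2 (adjusted p = 0.0115) or INDY replicate 3 (adjusted p = 0.0116). For BLM, which also rose with both, it did not pass without harmine replicate 1 (adjusted p = 0.011). The members' log2 fold changes with harmine and with INDY correlated at a Pearson r of 0.39 (n = 46 genes, which share libraries and are not independent). Between the vehicles no member was called in edgeR (1.58% of all genes were higher with DMSO and 2.71% lower) or in DESeq2, but 8 had an unadjusted p under 0.05 and all 8 were higher with DMSO. The lowest of these adjusted p was 0.0443, for SLX4. Over all 46 the median was 0.05 in DMSO against water, and 36 lay above 0. Over all genes tested the median was -0.002. The shares of all genes at an unadjusted p under 0.05 and above 0 were not taken. Neither the 8 nor the 36 can therefore be set against the table.

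The 4 genes of break sensing and end resection moved apart from each other. NBN, the subunit of the MRE11 complex that recruits the ATM kinase, was the only member that fell with harmine. It read 93.2, 98.9, 97.9 and 90.6 CPM with water and 62.1, 60.1, 60.1 and 59.5 with harmine, with every treated library below every control (log2 fold change -0.66, standard error 0.05, adjusted p = 1.19e-09). With DMSO it read 98.9, 102, 104 and 106 CPM and with INDY 96.6, 104, 87.5 and 105, groups that overlapped (log2 fold change -0.07, adjusted p = 0.211). The nuclease of the same complex, MRE11 (chromosome 11, 94415570 to 94493885, minus strand, GRCh38), went the other way with harmine. Its levels were 40.7, 45.2, 45.3 and 41.2 CPM with water against 61.9, 59.1, 56.8 and 53.6 with harmine (log2 fold change 0.42, standard error 0.05, adjusted p = 1.21e-06), a rise without overlap. With DMSO they were 43.2, 45.2, 45.7 and 44.8 and with INDY 35.0, 36.7, 31.1 and 35.1 CPM, a fall without overlap (log2 fold change -0.38, standard error 0.05, adjusted p = 3.14e-06). RAD50, the coiled-coil ATPase that holds the complex together, read 78.0, 77.0, 76.6 and 81.7 CPM with water and 89.5, 86.2, 85.6 and 85.4 with harmine without overlap, but was not called (log2 fold change 0.15, adjusted p = 0.0276). With DMSO and INDY the values were 76.1, 78.3, 79.7 and 77.8 and 71.7, 73.7, 57.1 and 69.3 CPM, and the fall was called (log2 fold change -0.20, standard error 0.05, adjusted p = 0.00292), with INDY replicate 3 lowest. Its call is uncertain, because 90.9% of its transcript sequence is shared with a readthrough gene, and in a fit of the 8 libraries alone the fall did not pass (adjusted p = 0.0127) while the rise with harmine did (0.13, adjusted p = 0.00134). RBBP8 encodes CtIP, which starts resection with MRE11, and it rose with both compounds. Its levels were 81.2, 86.0, 84.2 and 82.1 CPM with water, 103, 96.3, 97.2 and 96.1 with harmine, 81.6, 81.8, 82.4 and 82.7 with DMSO and 105, 106, 105 and 113 with INDY. Neither treated group overlapped its control, and the log2 fold changes were 0.24 and 0.39.

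The genes of the BRCA1 and BRCA2 complexes, which load the recombinase onto single strands, rose with harmine in 4 of 4 cases, and with INDY only BARD1 was called. BRCA1 (chromosome 17, 43044295 to 43170245, minus strand) had the largest rise of these with harmine. It read 43.1, 48.0, 51.0 and 44.2 CPM with water and 80.2, 77.2, 79.5 and 77.7 with harmine (log2 fold change 0.75, standard error 0.07, adjusted p = 2.37e-08), a 1.69-fold level without overlap. With DMSO it read 45.7, 48.7, 49.3 and 51.7 CPM and with INDY 45.3, 52.1, 38.6 and 47.6, and these groups overlapped (log2 fold change -0.09, adjusted p = 0.24). BARD1, its partner in a ubiquitin ligase, went from 17.6, 19.1, 19.2 and 17.0 CPM with water to 23.1, 24.1, 23.1 and 22.9 with harmine (log2 fold change 0.35, standard error 0.06, adjusted p = 7.17e-05). With INDY it lay at 17.1, 17.8, 13.9 and 16.8 CPM against 18.2, 19.0, 19.4 and 19.9 with DMSO (log2 fold change -0.22, standard error 0.06, adjusted p = 0.00352). Neither treated group overlapped its control. Its fall with INDY was called close to the threshold. It did not pass without DMSO replicate 3 (adjusted p = 0.0108), without DMSO replicate 4 (adjusted p = 0.0122) or without INDY replicate 3 (adjusted p = 0.0131). Nor did it pass in a fit of the 8 libraries or without both INDY replicates 1 and 3. The log2 fold change stayed below 0 in all 15 alternatives (-0.26 to -0.14). PALB2, which joins BRCA1 to BRCA2, had a log2 fold change of 0.31 with harmine (adjusted p = 1.65e-05) and -0.03 with INDY (adjusted p = 0.534). BRCA2, the loader itself, had 0.50 (adjusted p = 9.4e-06) and 0.10 (adjusted p = 0.225), and without INDY replicate 3 the latter was called (0.20, adjusted p = 0.00191).

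Of the 5 classical paralogs of the recombinase, which assist its filaments, all rose with harmine, and with INDY RAD51C rose, 3 fell and XRCC2 was not called. RAD51B (chromosome 14, 67819779 to 68730218, plus strand) had the largest fall of any member with INDY. Its level was 11.8, 11.8, 11.1 and 12.8 CPM with DMSO and 5.30, 6.11, 5.04 and 6.45 with INDY, 2.08-fold lower with no overlap (log2 fold change -1.05, standard error 0.08, adjusted p = 4.02e-10). With water it was 12.6, 11.7, 13.0 and 13.8 and with harmine 15.4, 17.0, 15.1 and 15.3 CPM, a smaller change upwards (log2 fold change 0.30, standard error 0.07, adjusted p = 0.00134). That rise did not pass without harmine replicate 2, its highest library (0.24, adjusted p = 0.0113). RAD51B forms a pair with RAD51C in a larger complex with RAD51D and XRCC2. RAD51C had log2 fold changes of 0.35 and 0.17 (adjusted p = 6.99e-08 and 0.000251).

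XRCC3, the other partner of RAD51C, had the largest rise among the paralogs with harmine. It stood at 10.3, 10.8, 11.7 and 11.6 CPM with water and 18.9, 18.5, 18.8 and 19.1 with harmine (log2 fold change 0.76, standard error 0.05, adjusted p = 3.16e-10). With DMSO it stood at 11.5, 12.2, 11.1 and 11.3 CPM and with INDY at 9.26, 10.2, 9.62 and 9.68, a called fall without overlap (log2 fold change -0.24, standard error 0.05, adjusted p = 0.000301). RAD51D gave 17.9, 19.4, 19.4 and 18.2 CPM with water, 23.0, 21.7, 23.0 and 23.0 with harmine, 19.3, 20.4, 21.3 and 19.7 with DMSO and 16.5, 17.3, 17.1 and 16.9 with INDY. Its harmine libraries all lay above the water libraries and its INDY libraries all below the DMSO libraries (log2 fold changes 0.27 and -0.25, adjusted p = 1.98e-05 and 3.47e-05). XRCC2 rose with harmine (log2 fold change 0.60, standard error 0.08, adjusted p = 2.12e-06) and had 0.09 with INDY (adjusted p = 0.293). SWSAP1, a more distant relative that binds single-stranded DNA with SWS1, had the fewest counts of all members and was called with neither compound. It read 1.55, 1.61, 1.39 and 1.56 CPM with water, 1.46, 1.45, 1.79 and 1.43 with harmine, 1.61, 1.79, 1.27 and 1.33 with DMSO and 2.02, 1.96, 1.69 and 2.16 with INDY (log2 fold changes 0.01 and 0.38, 95% intervals -0.25 to 0.26 and 0.13 to 0.63). Its value with INDY (adjusted p = 0.0118) passed without DMSO replicate 2 (0.47, adjusted p = 0.00415) or without INDY replicate 3 (0.45, adjusted p = 0.00531).

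**Figure D2:**
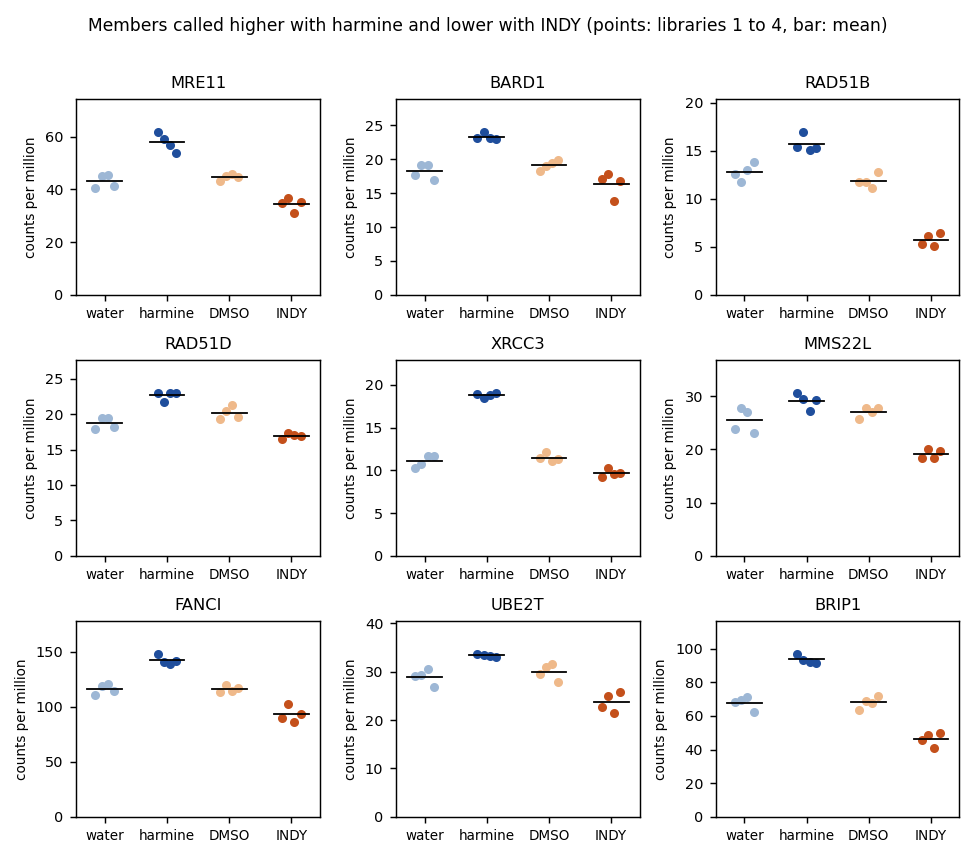
Level in CPM (vertical axes from 0) of the 9 members called higher with harmine and lower with INDY, with 1 point per library (replicates 1 to 4 from left to right) and the mean of 4 as a bar, in the water, harmine, DMSO and INDY groups. RAD51B is lowest with INDY at a mean of 5.73 CPM, and MMS22L has one harmine library within the range of the water libraries.

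The annealing and motor genes rose with harmine in 4 of 4 cases, and RAD52 and RAD54L rose with INDY as well. RAD52, which anneals complementary single strands, had the larger change with INDY. Its levels were 13.0, 11.7, 12.3 and 14.1 CPM with water and 19.8, 19.3, 21.7 and 20.3 with harmine (log2 fold change 0.67, standard error 0.06, adjusted p = 1.91e-08). They were 12.5, 11.7, 12.0 and 12.8 CPM with DMSO and 26.9, 25.4, 29.5 and 26.7 with INDY, 2.22-fold higher (log2 fold change 1.15, standard error 0.06, adjusted p = 3.33e-12). In RAD52 all treated libraries lay above all controls. RAD54L, a motor that moves along duplex DNA during strand invasion, also rose with both. It read 15.7, 16.9, 17.2 and 17.4 CPM with water and 32.0, 31.8, 31.9 and 31.2 with harmine (log2 fold change 0.91, standard error 0.04, adjusted p = 3.29e-12). With DMSO it read 16.4, 17.9, 18.2 and 17.4 CPM and with INDY 32.0, 30.8, 32.6 and 30.3 (log2 fold change 0.85, standard error 0.04, adjusted p = 1.88e-12). Neither treated group of RAD54L overlapped its control, and the difference between its log2 effects was 0.07 (95% interval -0.05 to 0.18). RAD54B, a related motor, had 0.68 with harmine (adjusted p = 2.04e-07) and 0.18 with INDY (adjusted p = 0.0299; without INDY replicate 3 this was 0.24, adjusted p = 0.00664). Its values are uncertain, since 64.4% of its transcript sequence is shared with FSBP. RAD51AP1, which helps the filament capture duplex DNA, rose with harmine (log2 fold change 0.29, adjusted p = 0.000234) and had -0.16 with INDY (adjusted p = 0.0164), which passed as a fall with upper-quartile factors, without the filter and in a fit of the 8 libraries. Every INDY library of RAD51AP1 lay below every DMSO library.

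The 3 regulators of recombination at replication forks included a pair that parted with INDY. TONSL reads newly made histones behind the fork and binds MMS22L. It was at 97.1, 104, 105 and 103 CPM with water and 187, 202, 209 and 208 with harmine, 1.97-fold higher (log2 fold change 0.98, standard error 0.04, adjusted p = 9.28e-13). With DMSO it was at 105, 109, 102 and 104 CPM and with INDY at 170.0, 172, 185 and 165, 1.65-fold higher (log2 fold change 0.72, standard error 0.04, adjusted p = 1.06e-11). All treated libraries of TONSL lay above all controls. MMS22L, its partner, gave 25.7, 27.8, 27.0 and 27.7 CPM with DMSO and 18.3, 20.1, 18.3 and 19.8 with INDY, a fall without overlap (log2 fold change -0.50, standard error 0.06, adjusted p = 3.08e-07). With water and harmine it gave 23.8, 27.8, 27.1 and 23.2 and 30.7, 29.5, 27.2 and 29.3 CPM, groups that overlapped through harmine replicate 3 (log2 fold change 0.19, standard error 0.06, adjusted p = 0.00705). This rise with harmine did not pass without water replicate 1 (adjusted p = 0.029) or 4 (adjusted p = 0.0311), or without harmine replicate 1 (adjusted p = 0.0397), 2 (adjusted p = 0.029) or 4 (adjusted p = 0.0253), and without both water replicates 1 and 4 it was 0.09 (adjusted p = 0.198). Nor did it pass with upper-quartile factors, without the filter or in a fit of the 8 libraries, so it was lost in 9 of 15 alternatives. PARPBP, an inhibitor of recombination that dismantles filaments, was called with neither compound. Its levels were 13.4, 14.1, 15.3 and 12.4 CPM with water, 14.9, 14.5, 13.3 and 13.0 with harmine, 14.6, 14.7, 14.5 and 15.95 with DMSO and 14.3, 13.9, 13.6 and 13.5 with INDY (log2 fold changes 0.01 and -0.11, 95% intervals -0.11 to 0.13 and -0.23 to 0.01). Every INDY library of PARPBP lay below every DMSO library, though the change was not called in edgeR (adjusted p = 0.111).

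POLQ (chromosome 3, 121431431 to 121545988, minus strand), which encodes polymerase theta, had the largest rise of any member with INDY. Its INDY libraries were at 28.3, 27.3, 24.8 and 27.6 CPM against 10.9, 11.8, 11.0 and 10.2 with DMSO, 2.46-fold higher (log2 fold change 1.30, standard error 0.05, adjusted p = 9.59e-14). With harmine it was at 23.5, 23.4, 22.3 and 22.3 CPM against 10.4, 11.1, 10.9 and 10.1 with water, 2.15-fold higher (log2 fold change 1.11, standard error 0.05, adjusted p = 4.2e-12). All 8 treated libraries lay above all 8 controls. The difference between the effects was -0.19 (95% interval -0.33 to -0.05, adjusted p = 0.0273), and without INDY replicate 3, the lowest of its group, it passed (-0.25, adjusted p = 0.00302).

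The BLM helicase complex, which dissolves joined DNA molecules without crossing over, rose with harmine in 4 of 4 genes and with INDY in 3. RMI2 (chromosome 16, 11249619 to 11381662, plus strand), the smallest subunit, had the largest change of these with both compounds. It read 13.8, 16.1, 16.2 and 13.6 CPM with water and 41.5, 38.7, 38.3 and 38.2 with harmine (log2 fold change 1.39, standard error 0.08, adjusted p = 2.6e-11). With DMSO it read 16.03, 17.1, 17.1 and 16.6 CPM and with INDY 21.6, 24.4, 18.4 and 24.0 (log2 fold change 0.40, standard error 0.08, adjusted p = 0.000109). Harmine therefore raised it 2.62-fold and INDY 1.32-fold, without overlap in either case. BLM itself, the helicase, had log2 fold changes of 0.70 and 0.34 (adjusted p = 7.16e-08 and 0.000212), and in DMSO against water it had 0.22 (adjusted p = 0.0503). TOP3A, the topoisomerase of the complex, rose by 0.32 and 0.33 (difference -0.01, 95% interval -0.10 to 0.08). RMI1, the scaffold, rose with harmine (0.49, adjusted p = 3.85e-06) and had 0.15 with INDY (adjusted p = 0.0564; without INDY replicate 3 it was 0.22, adjusted p = 0.00231).

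Among the structure-selective nucleases, EME1 (chromosome 17, 50373220 to 50381483, plus strand), the partner that MUS81 needs for cutting, had the largest rise of all members with harmine. It read 7.33, 10.1, 9.36 and 6.89 CPM with water and 26.8, 26.7, 24.7 and 25.6 with harmine, 3.07-fold higher (log2 fold change 1.62, standard error 0.13, adjusted p = 4.25e-09). With DMSO it read 8.38, 11.4, 11.0 and 11.1 CPM and with INDY 10.0, 12.8, 8.33 and 12.4 (log2 fold change 0.05, standard error 0.13, adjusted p = 0.72). The harmine libraries lay far above all others, and the INDY values ran on either side of the DMSO values, with replicates 1 and 3 below replicates 2 and 4. MUS81, the catalytic subunit, rose with harmine by less (log2 fold change 0.38, adjusted p = 1.01e-07) and had -0.12 with INDY (adjusted p = 0.0118; without INDY replicate 3 it was -0.13, adjusted p = 0.00627). GEN1, a nuclease that cuts Holliday junctions on its own, rose more with INDY. Its levels were 19.1, 20.7, 19.7 and 18.8 CPM with water, 25.7, 24.4, 23.5 and 23.7 with harmine, 20.2, 20.9, 19.8 and 21.9 with DMSO and 34.0, 34.1, 30.2 and 30.8 with INDY (log2 fold changes 0.31 and 0.64, difference -0.33, adjusted p = 0.000487). Both rises of GEN1 were without overlap. SLX4, a scaffold that binds MUS81 with EME1, had 0.05 with harmine (adjusted p = 0.209) and rose with INDY (0.33, adjusted p = 8.86e-08).

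Of the 10 genes of the Fanconi core complex, 7 rose and none fell with harmine, and 6 rose and 2 fell with INDY. FANCA, a large scaffold subunit, rose most with harmine. It read 34.4, 35.1, 36.4 and 33.4 CPM with water and 63.9, 59.0, 62.4 and 60.8 with harmine (log2 fold change 0.82, standard error 0.04, adjusted p = 2.09e-12). With DMSO it read 35.4, 36.8, 37.3 and 36.8 CPM and with INDY 50.7, 51.9, 50.0 and 47.7 (log2 fold change 0.45, standard error 0.04, adjusted p = 1.67e-09). Neither treated group overlapped its control. FANCA binds FANCG, which rose with harmine alone (0.71, adjusted p = 7.29e-10, against 0.07, adjusted p = 0.239, with INDY). FANCC and FANCF, the subunits that fell with INDY, were not called with harmine. FANCC was at 27.0, 26.8, 27.6 and 26.4 CPM with DMSO and 18.4, 21.1, 17.0 and 20.1 with INDY (log2 fold change -0.49, standard error 0.05, adjusted p = 8.85e-08), and at 25.4, 26.8, 25.9 and 26.1 with water and 26.6, 25.5, 25.9 and 27.8 with harmine (0.02). FANCF was at 9.63, 9.94, 9.45 and 8.95 CPM with DMSO and 6.74, 5.92, 5.81 and 7.80 with INDY (log2 fold change -0.54, standard error 0.08, adjusted p = 4.33e-06), and at 8.34, 9.12, 9.04 and 8.82 with water and 9.09, 8.09, 8.59 and 8.86 with harmine (-0.03). In both genes every INDY library lay below every DMSO library. FANCE, which bridges these to FANCD2, rose with both (0.54 and 0.29, adjusted p = 5.83e-09 and 8.91e-06).

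FANCL, the ubiquitin ligase of the core complex, was called with neither compound. It read 26.5, 29.9, 28.4 and 24.8 CPM with water, 30.9, 27.5, 27.3 and 27.7 with harmine, 30.6, 30.8, 30.1 and 30.1 with DMSO and 30.8, 32.2, 31.1 and 32.4 with INDY. Its log2 fold changes were 0.05 (95% interval -0.05 to 0.15) and 0.06 (95% interval -0.04 to 0.16). The subunits that hold FANCL rose with both compounds, FANCB by 0.50 and 0.55 and FAAP100 by 0.19 and 0.32. The DNA-binding pair of the complex also rose with both. FAAP24 gave 4.98, 5.01, 4.83 and 4.86 CPM with water and 7.21, 6.43, 6.34 and 7.15 with harmine (log2 fold change 0.46, standard error 0.07, adjusted p = 7.36e-06). With DMSO and INDY it gave 4.60, 5.27, 4.84 and 5.21 and 7.30, 8.08, 7.48 and 7.88 CPM (log2 fold change 0.63, standard error 0.07, adjusted p = 6.22e-08), the largest rise of the complex with INDY. All treated libraries of FAAP24 lay above their controls. FANCM, its partner and a translocase, had 0.44 and 0.40 (difference 0.03, 95% interval -0.08 to 0.15).

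The FANCD2 and FANCI pair, which is ubiquitinated and clamps onto DNA, rose together with harmine and parted with INDY. FANCD2 (chromosome 3, 10026370 to 10101932, plus strand) was at 50.9, 55.4, 56.8 and 50.7 CPM with water and 115, 109, 104 and 105 with harmine, 2.02-fold higher (log2 fold change 1.02, standard error 0.05, adjusted p = 2.45e-11). With DMSO it was at 52.3, 53.7, 54.7 and 54.9 CPM and with INDY at 80.5, 87.7, 70.8 and 84.4 (log2 fold change 0.58, standard error 0.06, adjusted p = 1.57e-08). Both rises were without overlap. FANCI (chromosome 15, 89243945 to 89317261, plus strand) rose less with harmine and fell with INDY. Its levels were 110.4, 119, 120.1 and 115 CPM with water and 148, 140.1, 139 and 141 with harmine (log2 fold change 0.29, standard error 0.04, adjusted p = 1.21e-05). They were 114, 119.8, 114 and 117 CPM with DMSO and 89.4, 103, 86.1 and 93.2 with INDY (log2 fold change -0.32, standard error 0.04, adjusted p = 2.16e-06). Every harmine library of FANCI lay above the water libraries and every INDY library below the DMSO libraries. UBE2T, the conjugating enzyme that works with FANCL, also moved in opposite directions. It read 29.2, 29.4, 30.6 and 26.9 CPM with water, 33.8, 33.5, 33.4 and 33.1 with harmine, 29.6, 31.0, 31.6 and 27.9 with DMSO and 22.7, 25.0, 21.4 and 25.8 with INDY (log2 fold changes 0.20 and -0.34, adjusted p = 0.00345 and 1.69e-05). Neither treated group of UBE2T overlapped its control. Its rise with harmine was small, and it did not pass without water replicate 2 (adjusted p = 0.0106) or 4 (adjusted p = 0.0157) or without any 1 of the 4 harmine libraries (adjusted p = 0.0112 to 0.0142). USP1, which removes the ubiquitin, rose with both (0.41 and 0.32, adjusted p = 8.88e-10 and 9.35e-09).

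BRIP1 and FAN1 act on the opened crosslink and moved differently. BRIP1 (chromosome 17, 61679139 to 61863559, minus strand), a helicase that binds BRCA1, rose with harmine and fell with INDY. It was at 68.2, 69.7, 71.1 and 62.4 CPM with water and 97.1, 93.5, 92.1 and 91.6 with harmine (log2 fold change 0.46, standard error 0.05, adjusted p = 5.16e-07). With DMSO it was at 63.5, 69.1, 67.6 and 71.7 CPM and with INDY at 45.9, 48.8, 40.8 and 49.6 (log2 fold change -0.56, standard error 0.05, adjusted p = 2.69e-08). Neither pair of groups overlapped, and the difference between the effects was 1.02. FAN1, a nuclease that FANCD2 recruits, rose with both and more with INDY. Its levels were 17.0, 16.2, 17.2 and 18.1 CPM with water and 20.5, 20.5, 20.1 and 19.8 with harmine (log2 fold change 0.24, standard error 0.05, adjusted p = 0.00023). They were 15.9, 17.3, 16.6 and 18.00 CPM with DMSO and 32.1, 30.8, 32.9 and 29.7 with INDY, 1.86-fold higher (log2 fold change 0.89, standard error 0.05, adjusted p = 3.49e-12). Both rises were without overlap. FAN1 had the most negative difference between the effects of all members (difference -0.65, standard error 0.07, adjusted p = 8.67e-08).

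Proteins of these pathways work in pairs, and the level of one partner relative to the other was taken in each library as a difference of log2 CPM. The pairs were chosen after the values were seen, so the ratios are descriptions. TONSL over MMS22L stood at 2.02, 1.90, 1.95 and 2.15 with water, 2.61, 2.77, 2.94 and 2.82 with harmine, 2.03, 1.97, 1.92 and 1.91 with DMSO and 3.21, 3.09, 3.33 and 3.06 with INDY. It was thus higher in every treated library than in any control, by 0.78 with harmine and 1.22 with INDY. FANCD2 over FANCI went from -1.12, -1.10, -1.08 and -1.18 with water to -0.37, -0.36, -0.42 and -0.42 with harmine. With DMSO it was -1.12, -1.16, -1.06 and -1.09 and with INDY -0.15, -0.23, -0.28 and -0.14. FANCD2 thus gained on FANCI with both compounds, although FANCI itself rose with one and fell with the other. RAD51C over RAD51B overlapped between water and harmine (means of 2.24 and 2.30), and its mean was 2.31 ± 0.10 in the DMSO and 3.53 ± 0.11 in the INDY libraries (SD, n = 4). EME1 over MUS81 rose by 1.26 with harmine, and its DMSO and INDY libraries overlapped. USP1 over WDR48, whose product activates USP1, rose from 0.71 ± 0.03 to 1.46 ± 0.06 with harmine and from 0.74 ± 0.06 to 1.88 ± 0.09 with INDY.

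**Figure D3:**
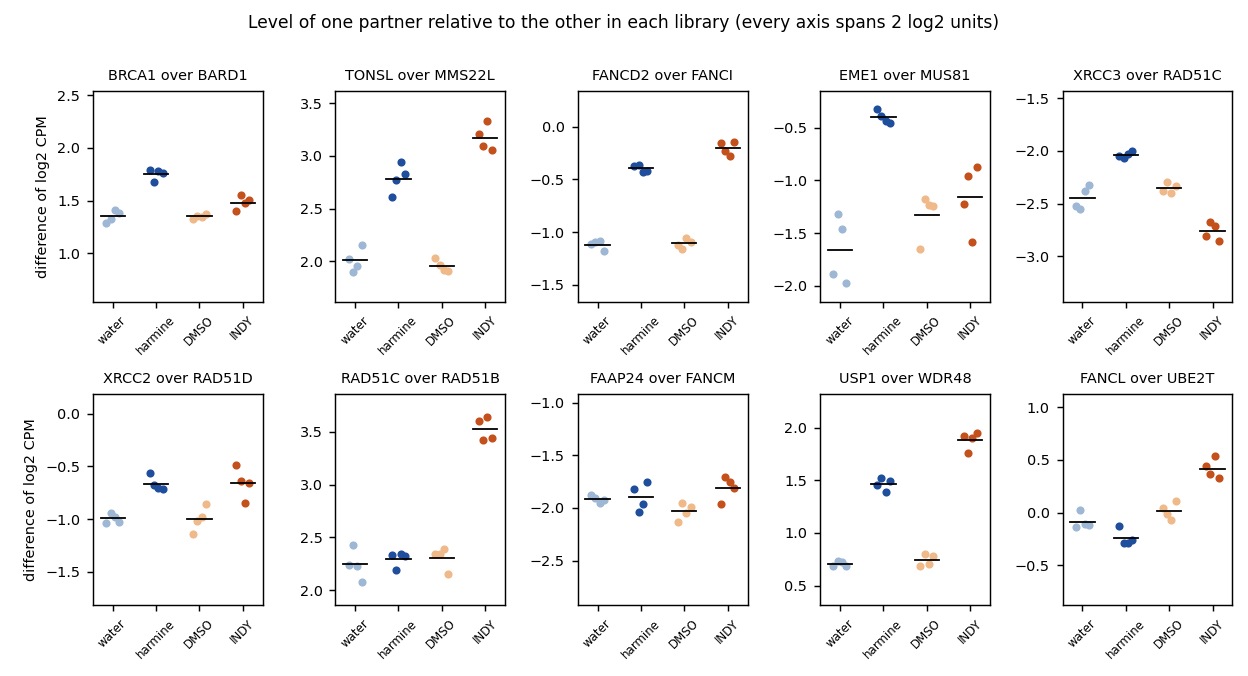
Difference of log2 CPM between partner genes in each library (1 point per library, mean of 4 as a bar) for 10 pairs in the water, harmine, DMSO and INDY groups, on axes that each span 2 log2 units and do not start at 0. TONSL over MMS22L, FANCD2 over FANCI, USP1 over WDR48 and, narrowly, XRCC2 over RAD51D lie higher in every treated library than in any control. RAD51C over RAD51B is set apart with INDY.

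Levels between members were compared only per kilobase of the canonical transcript. With water, USP1 was the most abundant member at 41.5 CPM per kb, followed by UBE2T at 33.1, RBBP8 at 25.5, FANCI at 24.5 and RAD51C at 23.7. POLQ was lowest at 1.21 CPM per kb, then SWSAP1 at 1.66 and FANCB at 1.70. In the DMSO group the highest and lowest were again USP1 (43.2) and POLQ (1.25).

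Other genes of these pathways, in 4 lists with 69 genes tested, are set beside the members by count. With harmine 35 rose and 12 fell at a median log2 fold change of 0.13, and with INDY 31 rose and 19 fell at a median of 0.11. Of all genes tested, 24.9% were called higher and 22.8% lower with harmine, and 33.2% and 33.4% with INDY. Among 35 other recombination genes, 18 rose and 6 fell with harmine, and 13 rose and 11 fell with INDY. The counts with INDY lie close to the shares of all genes. HELB, a helicase that limits resection, fell with both (-1.02 and -0.91, adjusted p = 7.09e-09 and 1.03e-08). DMC1, the meiotic recombinase, rose with harmine (0.91) and fell with INDY (-0.50), at a mean of only 2.58 CPM with water. SFR1, which stabilizes filaments, fell with INDY (-0.95, adjusted p = 8.2e-07). SLX1B, the nuclease subunit bound by SLX4, had 1.35 with INDY (adjusted p = 0.000511), which is uncertain because SLX1A is a near-identical copy.

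Of 15 other Fanconi and crosslink genes, 13 rose with harmine and WDR48 fell, and with INDY 8 rose and 3 fell. WDR48 fell with both compounds (-0.34 and -0.82, adjusted p = 1.74e-07 and 4.88e-13), whereas its partner USP1 rose with both. ATAD5, which unloads the sliding clamp and brings USP1 to it, rose with harmine (0.61), as did the nuclease gene DCLRE1B (0.56). CENPS, which binds DNA with FANCM, had the largest rise with INDY (0.87, adjusted p = 1.09e-10). Of 14 genes of the BRCA1-A complex and end protection, 3 rose and 4 fell with harmine, and 7 rose and 4 fell with INDY. The counts with harmine lie close to the shares of all genes (24.9% higher and 22.8% lower). With INDY these shares were 33.2% and 33.4%. ABRAXAS1, the scaffold of BRCA1-A, fell from 42.7 ± 1.95 CPM in DMSO to 18.2 ± 3.79 in INDY libraries (SD, n = 4), and UIMC1, its ubiquitin-binding subunit, rose from 29.3 ± 0.694 to 64.9 ± 1.98 CPM. UIMC1 also rose with harmine (0.30) and was lower with DMSO than with water (-0.18, adjusted p = 0.00576), and SHLD1 of the shieldin complex fell with harmine (-0.57). Of 5 other theta-mediated end joining genes, FEN1 rose and LIG3 fell with harmine (0.65 and -0.23). With INDY 3 of the 5 rose and LIG3 fell (-0.37), the largest rise being that of HMCES (0.35).

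Markers of S phase and G2/M rose more often than they fell with harmine. Of 20 such genes, 11 rose and PLK1 fell with harmine at a median log2 fold change of 0.30, and 7 rose and 5 fell with INDY at a median of 0.00. Over all genes tested, 24.9% rose and 22.8% fell with harmine, and 33.2% rose and 33.4% fell with INDY. With INDY the share of markers that rose is thus close to that of all genes, and the share that fell is below it. MCM2 and CDC6 rose most with harmine (0.94 and 0.81), and with INDY PLK1 rose (0.72) and RRM2 fell (-0.65) most. Their summed level was 2349 to 2753 CPM with water, 3387 to 3516 with harmine, 2734 to 2891 with DMSO and 2772 to 3203 with INDY. Between the vehicles none was called, at a median of 0.15 in DMSO against water. Every one of the 20 passed the filter and none had a mean under 1 CPM. Their part in the members' changes was not tested.

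For each library, every member's log2 CPM was set against its mean in the vehicle group of that compound, and the median over the 46 was taken. The harmine libraries lay at 0.42, 0.41, 0.35 and 0.34, and the water libraries at -0.05, 0.04, 0.05 and -0.05. The INDY libraries lay at 0.18, 0.20, 0.00 and 0.24, and the DMSO libraries at -0.03, 0.02, 0.00 and 0.01. INDY replicate 3 thus lay within the DMSO range, and the S phase and G2/M markers were lowest in the same library (-0.21, against -0.01, 0.12 and 0.13 in the other INDY libraries). Without it, 24 members were called higher with INDY and 12 lower, and of 20718 genes tested in that fit 6637 were higher and 6575 lower. By step, replicate 3 was lowest of the INDY libraries for the BRCA1 and BRCA2 complexes (-0.27, against -0.04 to 0.06) and for sensing and resection (-0.34, against -0.11 to -0.03), whereas for the annealing and motor genes all INDY libraries lay between 0.47 and 0.54. The other pathway genes lay between 0.08 and 0.11 in the 4 INDY libraries.

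**Figure D4:**
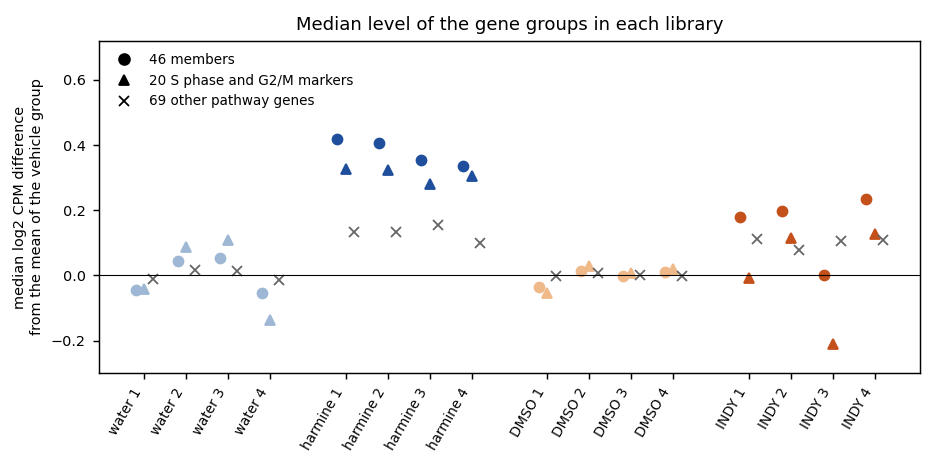
Median over genes of the distance in log2 CPM from the vehicle mean, in each of the 16 libraries, for the 46 members (circles), the 20 S phase and G2/M markers (triangles) and 69 other pathway genes (crosses). Harmine libraries lie between 0.34 and 0.42 for the members, and INDY replicate 3 lies at 0.00 for the members and -0.21 for the markers.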

How the data were processed

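RNA-seq of serum-deprived U2OS cells gave 16 libraries in 4 groups, which were taken from the sample labels. The authors deposited estimated counts per gene, made with Salmon 1.1 (selective alignment with GC and sequence bias corrections, GENCODE 37 transcripts, GRCh38 decoy) and summed with tximport 1.14.2. Their tests used edgeR 3.28.1. Reads were not reprocessed, and reads shared between overlapping genes were split by Salmon's model.

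Counts were rounded to whole numbers. In R 4.3.3, edgeR 4.0.16 (filterByExpr, TMM factors 0.982 to 1.022, glmQLFit and glmQLFTest, group as the only term) was fitted to all 16 libraries and 20446 genes, with Benjamini-Hochberg adjustment over these and a threshold of 0.01. The biological coefficient of variation was 0.0561. CPM are TMM-normalized, and log2 CPM used a prior count of 2. Intervals of 95% were taken from the standard errors on a normal scale. The smallest chi-square per degree of freedom between any pair of replicates was 2.17, so no library was counted as a duplicate. Replicate numbers did not pair libraries (correlations of deviations -0.05 to 0.09). Coordinates and transcript lengths are from GENCODE 44, and promoters from RefSeq (GRCh38.p14). The members and gene lists were chosen with earlier results of these data known. All members may be named. Values in every library are given for the member with the largest change with each compound in each step, and for those called lower, in opposite directions or with neither. Each of the 4 lists of other pathway genes and the S phase and G2/M list gives its 2 largest called changes per compound. The cell type marker lists are given mainly as sums. Markers were 10 osteosarcoma or mesenchymal, 7 epithelial and 7 blood genes. Of the listed genes FIRRM was not found by symbol. Alternatives were DESeq2 1.42.0, upper-quartile factors, other filters and thresholds, fits of 8 libraries, a replicate block and leaving out libraries.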

Additional observations from a re-analysis of the deposited data

Results flagged for a closer look

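In 184 tests of 46 members in 4 groups, 10 single libraries stood further from the other 3 of their group than Dixon's 95% critical value for 4 samples allows. Chance sets about 1 group in 20 apart in this way. The highest harmine library was replicate 1 for RBBP8 (103 CPM), RMI2 (41.5 CPM) and FANCL (30.9 CPM), and replicate 3 for SWSAP1 (1.79 CPM). The lowest harmine library of RAD51D was replicate 2 (21.7 CPM). INDY replicate 3 was lowest for PALB2 (18.8 CPM) and FANCE (22.0 CPM). Among DMSO libraries, replicate 3 was highest for RAD51AP1 (39.1 CPM), replicate 4 highest for PARPBP (15.95 CPM) and replicate 1 lowest for EME1 (8.38 CPM).

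The 9 members that rose with harmine and fell with INDY were called in opposite directions in comparisons without shared libraries, so the difference between their log2 effects follows from that choice and is no further support. It was not made at a matched dose. The difference by edgeR was 1.35 for RAD51B (adjusted p = 2.49e-09), 1.02 for BRIP1 (adjusted p = 1.63e-09), 1.00 for XRCC3 (adjusted p = 9.02e-10) and 0.80 for MRE11 (adjusted p = 2.84e-08). It was 0.69 for MMS22L, 0.62 for FANCI, 0.58 for BARD1, 0.55 for UBE2T and 0.52 for RAD51D, with adjusted p of 8.22e-08 to 1.38e-05. In these members all harmine libraries lay above all water libraries except for MMS22L, where the groups overlapped, and all INDY libraries lay below all DMSO libraries.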

How the results depend on the processing

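With a change of at least 1.5-fold asked for, 14 members rose with harmine in place of 38, 7 rose and 1 fell with INDY in place of 20 and 12, and the harmine effect was above that of INDY for 10 and below it for 2 in place of 29 and 6. At an adjusted p under 0.05, 2 members were higher with DMSO than with water. The shares of all genes were not taken for the 1.5-fold difference or for the vehicles at 0.05. DESeq2, upper-quartile factors, other filters and a fit of the 8 libraries gave 37 to 38 higher with harmine, and 20 to 21 higher and 11 to 14 lower with INDY. Leaving out 1 library at a time gave 35 to 38 higher and 1 lower with harmine, 20 to 24 higher and 11 to 12 lower with INDY, 26 to 29 differences above 0 and 5 to 7 below, and none called between the vehicles. With the replicate block, whose numbers did not pair the libraries, 38 rose and 1 fell with harmine, 20 rose and 12 fell with INDY, and 29 differences lay above 0 and 5 below. Fits chosen after seeing the data gave 22 higher and 11 lower with INDY and 25 differences above 0 without both INDY replicates 1 and 3, and 36 higher with harmine and 24 differences above 0 without both water replicates 1 and 4. Of 39 calls with harmine, 36 held in all 15 alternatives at a threshold of 0.01, the exceptions being RAD51B, MMS22L and UBE2T. Of 32 with INDY, 30 held in all 15, the exceptions being RAD50 and BARD1. Of 35 differences, 29 held in all 23, the exceptions being RBBP8, BRCA2, RAD51C, BLM, RMI1 and FANCE. No called change turned its direction. Depth limits SWSAP1 most, with 62 counts in its lowest library.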
